A study of Mus musculus with 8 samples.

Results

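Fatty acid oxidation is the set of reactions by which a cell shortens fatty acids and passes their electrons to the respiratory chain, and it is shared between mitochondria and peroxisomes. The 39 genes described here cover both: 21 act in mitochondria and 18 in peroxisomes. They were taken by gene symbol from a fixed list of oxidation enzymes, carnitine carriers, peroxins and catalase, out of 54134 genes in the deposited table. A filter of 1 TPM or more in 2 or more libraries kept 38 of them, tested among 14985 genes. Cpt1b was listed at 0 in all 8 libraries.

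The 3 groups came from wild-type mouse bone marrow stem cells, driven to adipocytes with a commercial adipogenesis kit for 14 days. GC+GW9662 (n = 3) had 24 hours of 1e-06 M dexamethasone (DEX, a synthetic glucocorticoid) together with GW9662, an antagonist of the nuclear receptor PPARγ, whose dose the sources used here do not give. GC (n = 3) had the same DEX without the antagonist. Control (n = 2) had the differentiation without these treatments, and the labels name no vehicle. Nothing in the labels says that replicates came from separate cultures or animals, so p-values measure the spread between these libraries, which may be technical.

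Long-chain fatty acids enter mitochondria as carnitine esters, carried by a shuttle whose first enzyme, carnitine palmitoyltransferase 1, is the main control point of the pathway. Inside, 4 steps repeat in a spiral (dehydrogenation, hydration, a further dehydrogenation and cleavage), each turn releasing acetyl-CoA. Peroxisomes run a related spiral on very long and branched chains, give off hydrogen peroxide that catalase breaks down, and import their enzymes with peroxins. In fat and liver many of these genes are known targets of PPAR nuclear receptors, and white adipocytes oxidize less fat than brown ones.

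The depth recovered from the steps between low values was 17433694 to 18468704 reads in GC+GW9662, 17684857 to 25621008 in GC and 25224019 to 26523046 in Control, as low estimates. Adipocyte markers were present beside far higher macrophage markers. The summed level of 12 adipocyte markers was 1364 to 1542 TPM in GC+GW9662, 443 to 549.8 TPM in GC and 1088 to 1091 TPM in Control, with Lep at 0 in every library. The 12 macrophage markers summed to 25491 to 29689.9 TPM in GC+GW9662, 9945 to 10439 TPM in GC and 32320 to 33224 TPM in Control, and none of them was at 0 in any library. The 6 osteoblast markers summed to 115 to 117 TPM in GC+GW9662, 13.3 to 32.1 TPM in GC and 521 to 547 TPM in Control, with Bglap at 0 to 2.08 TPM in all libraries, and the 6 marrow stroma markers to 177 to 213 TPM in GC+GW9662, 36.1 to 54.6 TPM in GC and 448 to 475 TPM in Control. Ucp1, which defines brown adipocytes, was at or below 0.0985 TPM. The part of these cell types in the changes below was not tested. In bulk RNA, fewer cells of a type and less RNA per cell cannot be told apart.

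The DEX label was checked on Fkbp5 and Tsc22d3, genes known to rise with glucocorticoids. Fkbp5 read 104, 78.8 and 104 TPM with GC+GW9662, against 32.5, 80.3 and 62.8 TPM with GC and 463 and 429 TPM in Control, and Tsc22d3 read 432, 401 and 455 TPM in the GC+GW9662 libraries, 50.9, 65.4 and 62.7 TPM in the libraries labelled GC and 572 and 543 TPM in Control. Both were highest in Control, against the known direction, so the groups are called by their labels only. GC replicate 1 stood apart from GC replicates 2 and 3 by gene length: its median difference from them ran from 0.20 (log2) in the shortest of 10 bins of exon length to -0.81 in the longest. The 8 members on which it lay farthest from GC replicates 2 and 3, and those whose call changed without it, are given with and without it.

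In GC against Control the mitochondrial oxidation genes were mostly lower. Of 20 tested, 16 passed at an adjusted p under 0.05 and all 16 were lower, where 55.3% of all genes tested passed (16.2% higher and 39.1% lower). The median log2 change of the 20 was -1.27, which is -0.89 relative to the median of all genes (-0.38). Pdk4, Echs1 and Acadm fell most. Beside them 10 of 12 macrophage markers (Cd68 was higher), 8 of 10 adipocyte markers, 5 of 5 osteoblast markers and 5 of 6 marrow stroma markers tested were lower, with medians of -4.23, -3.37, -4.43 and -2.89, and their part in these falls was not tested. Among 18 peroxisome genes 12 passed, 11 of them lower and 1 (Pex13) higher, and their median of -0.73 lay -0.35 from that of all genes. Each change is a difference between group means of log2(TPM + 1) with its SE, fitted in limma, and understates low genes. Its p is adjusted (Benjamini-Hochberg) over all genes tested. The libraries of the 2 groups did not overlap for 35 of the 38 members, against 71.9% of all genes.

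In GC+GW9662 against GC most passing members were higher. Of the 20 mitochondrial genes 17 passed, 13 higher and 4 lower, where 61.7% of all genes passed (28.3% higher and 33.5% lower). Their median change was 0.63, against -0.11 for all genes. Of the 18 peroxisome genes 9 passed, 7 higher and 2 lower, a share below that of all genes, with a median of 0.25. The 2 groups did not overlap for 26 of the 38 members, against 64.1% of all genes. Of the markers, 9 of 12 for macrophages were higher and Cd68 lower, 8 of 10 for adipocytes were higher and Pnpla2 and Cebpa lower, 4 of 5 for osteoblasts were higher, and 3 of 6 for marrow stroma were higher and Kitl lower. The 4 mitochondrial genes that were lower were Cpt1a, Crat, Acadl and Etfdh, and the 2 peroxisome genes were Cat and Pex13. These 2 comparisons share the GC libraries, so each one's values are given side by side and no agreement is read from them.

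In GC+GW9662 against Control 10 of 20 mitochondrial genes passed, 2 higher (Eci1 and Etfb) and 8 lower, where 62.7% of all genes passed (14.1% higher and 48.6% lower). Of the peroxisome genes 10 of 18 passed, 2 higher (Pex2 and Pex16) and 8 lower. Both shares were below that of all genes. Libraries of the 2 groups did not overlap for 30 of the 38 members, against 79% of all genes. The medians were -0.34 and -0.24, above the -0.49 of all genes. The 3 largest falls among mitochondrial genes were those of Cpt1a, Hadha and Crat, and among peroxisome genes those of Acox3, Cat and Hsd17b4. Over the 22 alternative settings their smallest falls were -1.40, -0.81 and -0.74, and -0.54, -1.38 and -0.56. The median of all genes was -1.39 in the exon length bin that holds Cpt1a and Hadha and -1.68 in that of Acox3. Of the markers, 6 of 12 for macrophages passed, all lower, and 7 of 10 for adipocytes, 3 higher and 4 lower, while 5 of 5 for osteoblasts and 6 of 6 for marrow stroma were lower.

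Summed over the members, the mitochondrial genes gave 992, 798 and 928 TPM in GC+GW9662, 581, 646 and 626 TPM in GC and 1294 and 1256 TPM in Control. The 3 groups did not overlap, and the libraries labelled GC were lowest. The peroxisome genes gave 767, 646 and 747 TPM in GC+GW9662, 681, 860.3 and 793 TPM in GC and 1354 and 1286 TPM in Control. Here the GC+GW9662 and GC libraries overlapped, and both lay below Control. The parts of this sum differed. GC+GW9662 lay above GC for the 6 oxidation enzymes (128 to 148 against 94.8 to 104 TPM) and the 3 peroxins of membrane protein insertion (194 to 201 against 109 to 126 TPM). It lay below GC for Cat (114 to 185 against 216 to 400.0 TPM) and the 7 matrix import peroxins (202 to 229 against 234 to 237 TPM), and overlapped GC for Pex11a. By order of group means, Control was highest for 13 of the 20 mitochondrial genes and GC lowest for 15. For the 18 peroxisome genes these counts were 9 and 9. Such orders were not counted over all genes, whose median log2 change was -0.38 in GC against Control and -0.49 in GC+GW9662 against Control.

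**Figure D1:**
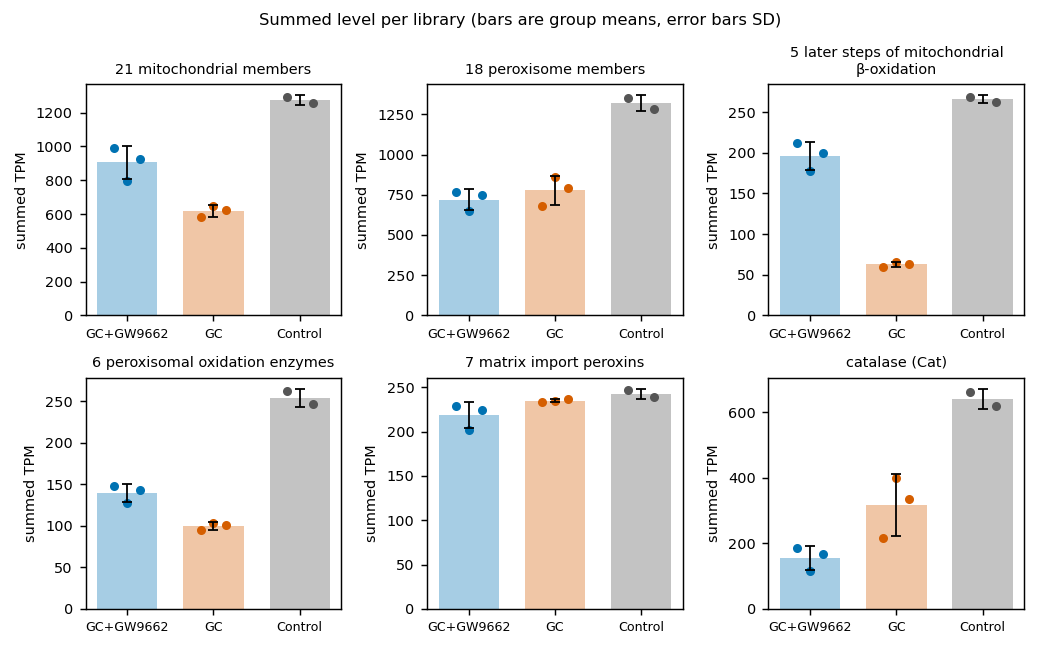
Summed TPM (vertical axis, from 0) of 6 groups of member genes in each library, with GC+GW9662 on the left, GC in the middle and Control on the right; points are libraries, bars are means and error bars are SD. The later mitochondrial steps are lowest in GC (59.4 to 66.1 TPM), whereas catalase is lowest in GC+GW9662 (114 to 185 TPM).

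The carnitine shuttle did not move as 1 block. Cpt1a, the liver-type carnitine palmitoyltransferase 1 that starts the shuttle, had 12.1, 10.2 and 9.27 TPM with GC+GW9662, against 12.5, 49.3 and 38.5 TPM with GC and 74.2 and 72.9 TPM in Control. Control was highest, GC+GW9662 lowest, and GC replicate 1 lay close to the GC+GW9662 libraries. For Cpt1a the log2 changes were -1.32 ± 0.48 in GC against Control (adjusted p = 0.0473), -1.38 ± 0.43 in GC+GW9662 against GC (adjusted p = 0.0234) and -2.70 ± 0.48 in GC+GW9662 against Control (adjusted p = 0.00294). The first of these missed the threshold in 16 of 22 alternative settings, with adjusted p of 0.00376 to 0.157 over all of them. Without GC replicate 1 the changes were -0.74 ± 0.16 in GC against Control (adjusted p = 0.00376) and -1.96 ± 0.14 in GC+GW9662 against GC (adjusted p = 7.37e-06).

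Cpt2, the inner membrane enzyme that releases the acyl group again, had 17.97, 14.2 and 18.3 TPM in the GC+GW9662 libraries, 11.5, 12.4 and 11.04 TPM in the libraries labelled GC and 32.5 and 31.6 TPM in Control. Its groups did not overlap in any comparison, with GC lowest. For Cpt2 the log2 changes were -1.39 ± 0.16 in GC against Control (adjusted p = 0.000164), 0.49 ± 0.14 in GC+GW9662 against GC (adjusted p = 0.0177) and -0.90 ± 0.16 in GC+GW9662 against Control (adjusted p = 0.00282). Slc25a20, the carrier that exchanges acylcarnitine for carnitine, had 44.6, 37.6 and 41.3 TPM with GC+GW9662, against 30.4, 23.7 and 28.6 TPM with GC and 43.4 and 44.8 TPM in Control. GC was again lowest, while GC+GW9662 and Control overlapped. For Slc25a20 the log2 changes were -0.67 ± 0.15 in GC against Control (adjusted p = 0.0051), 0.57 ± 0.13 in GC+GW9662 against GC (adjusted p = 0.00625) and -0.10 ± 0.15 in GC+GW9662 against Control (adjusted p = 0.572).

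Crat, which makes short-chain acylcarnitines, had 13.1, 8.45 and 11.3 TPM in the GC+GW9662 libraries, 14.3, 37.9 and 27.4 TPM in the libraries labelled GC and 38.8 and 38.1 TPM in Control. All GC+GW9662 libraries lay below all others, and GC spread widely. For Crat the log2 changes were -0.62 ± 0.36 in GC against Control (adjusted p = 0.179), -1.12 ± 0.32 in GC+GW9662 against GC (adjusted p = 0.0169) and -1.74 ± 0.36 in GC+GW9662 against Control (adjusted p = 0.00443). Without GC replicate 1 its change was -0.25 ± 0.21 in GC against Control (adjusted p = 0.346) and -1.50 ± 0.19 in GC+GW9662 against GC (adjusted p = 0.000182). The ratio of Cpt1a to Slc25a20 in TPM, a description with no test, was 0.271, 0.272 and 0.224 in GC+GW9662, 0.413, 2.08 and 1.35 in GC and 1.71 and 1.63 in Control. Cpt1b, the muscle-type counterpart of Cpt1a, was at 0 throughout. At its GENCODE M21 exon length a count of 0 allows up to 0.0717 to 0.0891 TPM per library (3 reads, counting error only). A shorter length behind the values would raise this limit. Of the exon bases of Cpt1b 81.4% are shared with an overlapping readthrough gene on the same strand in GENCODE M21, and how the authors' counting treated such reads was not tested.

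Of the promoters, 6 are shown: those of Pdk4, Echs1 and Cpt1a for their large changes, that of Cat for its high level, and those of the divergent gene pair Hadha and Hadhb. Each window runs from 250 bases before to 50 after the RefSeq start site (build GRCm38.p6), 5′ to 3′ on the gene's own strand, and capitals mark hexamers named below. Cpt1a lies on the plus strand with its window at chr19:3323051-3323350.
Cpt1a: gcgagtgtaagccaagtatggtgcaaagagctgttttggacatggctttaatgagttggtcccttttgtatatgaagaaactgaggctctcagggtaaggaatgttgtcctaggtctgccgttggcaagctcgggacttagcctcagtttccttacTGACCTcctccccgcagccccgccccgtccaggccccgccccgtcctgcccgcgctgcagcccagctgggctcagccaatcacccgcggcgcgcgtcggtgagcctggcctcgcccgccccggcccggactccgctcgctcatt
The capitals are TGACCT, the reverse complement of AGGTCA, the hexamer that nuclear receptors such as PPARγ with RXR bind as a direct repeat, and they begin 94 bases before the start site. Among 35 windows of 32 members, 5 windows (14.3%) held AGGTCA on either strand, those of Cat, Acadm, Echs1, Acadvl and Cpt1a, against 16.3% of 32851 windows of all genes. The full repeat, AGGTCA copied after 1 further base, was in 0 of the 35 and in 0.0396% of all windows. A match or its absence describes these letters in this window only.

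The acyl-CoA dehydrogenases take the first step of the spiral, each on its own chain length. In GC against Control 3 of the 4 passed as lower, where 39.1% of all genes did. In GC+GW9662 against GC the same 3 passed as higher, where 28.3% of all genes did, and the 2 comparisons share the GC libraries. Acadm, the medium-chain enzyme, had 49.4, 33.6 and 42.3 TPM with GC+GW9662, against 13.3, 20.1 and 16.5 TPM with GC and 104 and 95.3 TPM in Control. The 3 groups did not overlap. For Acadm the log2 changes were -2.53 ± 0.21 in GC against Control (adjusted p = 3.03e-05), 1.28 ± 0.19 in GC+GW9662 against GC (adjusted p = 0.000675) and -1.25 ± 0.21 in GC+GW9662 against Control (adjusted p = 0.00257). Acadvl, the very-long-chain enzyme, had 111, 78.8 and 93.8 TPM in the GC+GW9662 libraries, 65.1, 70.5 and 68.5 TPM in the libraries labelled GC and 160.5 and 156 TPM in Control. Control was highest and GC lowest, without overlap. For Acadvl the log2 changes were -1.21 ± 0.15 in GC against Control (adjusted p = 0.000245), 0.46 ± 0.13 in GC+GW9662 against GC (adjusted p = 0.0173) and -0.75 ± 0.15 in GC+GW9662 against Control (adjusted p = 0.00383). In GENCODE M21, 42.9% of the exon bases of Acadvl overlap Dvl2 on the opposite strand, and these libraries keep no strand.

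Acads, the short-chain enzyme, ranged over 41.2 to 46.5 TPM in GC+GW9662, 14.9 to 20.9 TPM in GC and 40.8 to 44.05 TPM in Control. Its GC libraries were lowest and the other 2 groups overlapped. Acads changed by -1.23 ± 0.16 in GC against Control (adjusted p = 0.000331) and by 1.29 ± 0.14 in GC+GW9662 against GC (adjusted p = 0.000145). Acadl, the long-chain enzyme, went apart from the other 3, with 88.9, 67.6 and 87.7 TPM with GC+GW9662, against 108, 128 and 122 TPM with GC and 109 and 92.1 TPM in Control. Its GC libraries lay above all GC+GW9662 libraries and overlapped Control. For Acadl the log2 changes were 0.25 ± 0.16 in GC against Control (adjusted p = 0.217), -0.55 ± 0.14 in GC+GW9662 against GC (adjusted p = 0.00994) and -0.31 ± 0.16 in GC+GW9662 against Control (adjusted p = 0.12). The first reached the threshold as a rise under 5 of 22 alternative settings, of which median-ratio scaling gave 0.79. The ratio of Acadl to Acadm in TPM was 1.80, 2.01 and 2.07 in GC+GW9662, 8.11, 6.37 and 7.39 in GC and 1.05 and 0.966 in Control, so these 2 dehydrogenases did not keep their proportion.

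**Figure D2:**
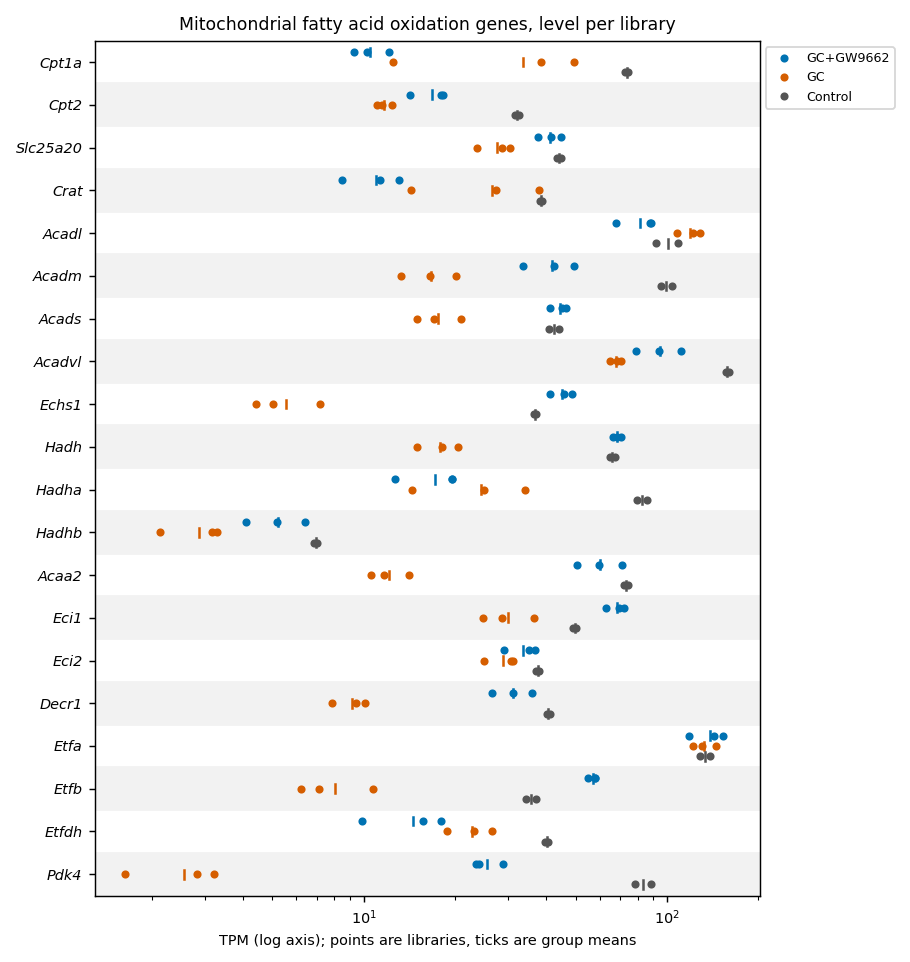
TPM on a log axis of the 20 mitochondrial members that passed the filter, 1 row per gene, with GC+GW9662 above GC above Control in each row; points are libraries and ticks are group means. Pdk4 at 1.64 to 3.22 TPM and Echs1 at 4.40 to 7.18 TPM in GC lie far below the other groups, while Etfa overlaps in all 3 groups.

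Where 39.1% of all genes passed as lower in GC against Control, all 5 genes of the later steps of the spiral did. Their summed level was 212, 178 and 199.7 TPM in GC+GW9662, 59.4, 66.1 and 63.1 TPM in GC and 269 and 263 TPM in Control. Echs1, the enoyl-CoA hydratase of short chains, had 48.8, 40.99 and 45.7 TPM in the GC+GW9662 libraries, 7.18, 4.40 and 5.01 TPM in the libraries labelled GC and 36.9 and 36.5 TPM in Control. GC was lowest, and GC+GW9662 lay above Control. For Echs1 the log2 changes were -2.55 ± 0.20 in GC against Control (adjusted p = 2.00e-05), 2.84 ± 0.17 in GC+GW9662 against GC (adjusted p = 6.59e-06) and 0.29 ± 0.20 in GC+GW9662 against Control (adjusted p = 0.227). Its promoter window lies at chr7:140116372-140116671 on the minus strand.
Echs1: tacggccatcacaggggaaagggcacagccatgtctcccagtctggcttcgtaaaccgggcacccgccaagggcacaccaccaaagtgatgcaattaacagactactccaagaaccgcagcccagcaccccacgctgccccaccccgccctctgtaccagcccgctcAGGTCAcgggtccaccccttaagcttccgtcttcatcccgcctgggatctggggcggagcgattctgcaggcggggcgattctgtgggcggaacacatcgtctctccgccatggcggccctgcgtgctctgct
The capitals are AGGTCA, beginning 83 bases before the start site. Paox, a peroxisomal polyamine oxidase on the opposite strand, shares 1.71% of the exon bases of Echs1.

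Hadh, the 3-hydroxyacyl-CoA dehydrogenase of shorter chains, ranged over 66.6 to 70.7 TPM in GC+GW9662, 15.01 to 20.4 TPM in GC and 64.9 to 67.1 TPM in Control. Acaa2, the thiolase that cleaves off acetyl-CoA, ranged over 50.4 to 70.8 TPM in GC+GW9662, 10.6 to 14.1 TPM in GC and 72.3 to 74.5 TPM in Control. Both were lowest in GC without overlap. Hadh changed by -1.84 ± 0.14 in GC against Control (adjusted p = 2.28e-05) and by 1.89 ± 0.13 in GC+GW9662 against GC (adjusted p = 1.11e-05). Acaa2 changed by -2.51 ± 0.18 in GC against Control (adjusted p = 1.39e-05) and by 2.22 ± 0.16 in GC+GW9662 against GC (adjusted p = 1.47e-05). Neither passed in GC+GW9662 against Control, with changes of 0.06 ± 0.14 for Hadh and -0.29 ± 0.18 for Acaa2.

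Hadha and Hadhb encode the α and β subunits of the mitochondrial trifunctional protein, which carries out the last 3 steps on long chains. Their RefSeq start sites lie 273 bases apart on chromosome 5 and point away from each other, so the 2 windows overlap and are printed as the pair's shared upstream region. Hadha lies on the minus strand at chr5:30154931-30155230 and Hadhb on the plus strand at chr5:30155003-30155302.
Hadha: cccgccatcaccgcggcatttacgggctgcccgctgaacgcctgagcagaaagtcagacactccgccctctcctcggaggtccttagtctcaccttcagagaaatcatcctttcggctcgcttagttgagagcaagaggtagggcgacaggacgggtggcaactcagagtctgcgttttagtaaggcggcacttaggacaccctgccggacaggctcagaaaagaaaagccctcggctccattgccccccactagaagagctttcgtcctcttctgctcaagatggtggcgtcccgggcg
Hadhb: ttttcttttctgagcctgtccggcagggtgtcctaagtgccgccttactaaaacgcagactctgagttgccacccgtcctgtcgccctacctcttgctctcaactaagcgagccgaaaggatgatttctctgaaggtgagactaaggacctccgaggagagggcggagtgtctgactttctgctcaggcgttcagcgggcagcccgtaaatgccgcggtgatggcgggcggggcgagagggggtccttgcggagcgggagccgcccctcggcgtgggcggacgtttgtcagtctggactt
Neither window held any of the 6 motifs searched. Hadha had 19.5, 12.7 and 19.5 TPM with GC+GW9662, against 14.5, 34.02 and 24.9 TPM with GC and 85.9 and 79.8 TPM in Control. Control was far above both, and GC overlapped GC+GW9662. For Hadha the log2 changes were -1.80 ± 0.33 in GC against Control (adjusted p = 0.00223), -0.43 ± 0.30 in GC+GW9662 against GC (adjusted p = 0.239) and -2.22 ± 0.33 in GC+GW9662 against Control (adjusted p = 0.00204). Without GC replicate 1 the first was -1.48 ± 0.22 (adjusted p = 0.000615), and the second was -0.75 ± 0.20 and passed (adjusted p = 0.0107).

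Hadhb had 6.40, 5.19 and 4.10 TPM in the GC+GW9662 libraries, 3.17, 2.13 and 3.29 TPM in the libraries labelled GC and 7.03 and 6.86 TPM in Control. GC was lowest without overlap, and GC+GW9662 lay between. For Hadhb the log2 changes were -1.05 ± 0.24 in GC against Control (adjusted p = 0.00567), 0.69 ± 0.21 in GC+GW9662 against GC (adjusted p = 0.0218) and -0.37 ± 0.24 in GC+GW9662 against Control (adjusted p = 0.203). The ratio of Hadha to Hadhb in TPM was 3.05, 2.45 and 4.75 in GC+GW9662, 4.56, 16.0 and 7.57 in GC and 12.2 and 11.6 in Control. The subunit levels therefore stood in a different proportion in GC+GW9662 than in Control, with no overlap of the 2 groups. The GC libraries overlapped the highest GC+GW9662 library and lay on either side of Control. No test was run on this ratio.

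The auxiliary enzymes handle double bonds that the spiral cannot. Eci1, an enoyl-CoA isomerase, ranged over 62.9 to 72.4 TPM in GC+GW9662, 24.7 to 36.4 TPM in GC and 49.1 to 50.2 TPM in Control. GC+GW9662 was highest and GC lowest. For Eci1 the log2 changes were -0.73 ± 0.17 in GC against Control (adjusted p = 0.00676), 1.18 ± 0.15 in GC+GW9662 against GC (adjusted p = 0.00032) and 0.45 ± 0.17 in GC+GW9662 against Control (adjusted p = 0.046). The last missed the threshold in 10 of 22 alternative settings. Decr1, the mitochondrial dienoyl-CoA reductase, ranged over 26.6 to 35.8 TPM in GC+GW9662, 7.88 to 10.1 TPM in GC and 40.2 to 41.1 TPM in Control. Decr1 changed by -2.04 ± 0.17 in GC against Control (adjusted p = 3.12e-05) and by 1.66 ± 0.15 in GC+GW9662 against GC (adjusted p = 5.51e-05), and its -0.39 ± 0.17 in GC+GW9662 against Control did not pass (without GC replicate 1 it did, with an SE of 0.13 and an adjusted p of 0.0314). Eci2, a further isomerase found in both organelles, ranged over 29.04 to 36.6 TPM in GC+GW9662, 24.8 to 31.2 TPM in GC and 37.00 to 37.9 TPM in Control and passed in no comparison in the main fit. It passed as higher under 4 of 22 alternative settings in GC+GW9662 against GC and under 3 in GC+GW9662 against Control.

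The electron transfer flavoprotein takes electrons from the dehydrogenases, and its 2 subunits behaved unlike each other. Etfb, the β subunit, had 58.03, 58.00 and 54.8 TPM with GC+GW9662, against 10.8, 7.12 and 6.23 TPM with GC and 34.2 and 37.04 TPM in Control. The 3 groups did not overlap. For Etfb the log2 changes were -2.05 ± 0.21 in GC against Control (adjusted p = 8.41e-05), 2.71 ± 0.18 in GC+GW9662 against GC (adjusted p = 1.11e-05) and 0.66 ± 0.21 in GC+GW9662 against Control (adjusted p = 0.0231). Without GC replicate 1 they were -2.26 ± 0.11 in GC against Control (adjusted p = 1.24e-06) and 2.92 ± 0.10 in GC+GW9662 against GC (adjusted p = 1.92e-07). Of its exon bases 58.2% overlap other genes on the same strand in GENCODE M21. Etfa, the α subunit, had 153, 118 and 143 TPM in the GC+GW9662 libraries, 145, 122 and 130.2 TPM in the libraries labelled GC and 128 and 138 TPM in Control, and all 3 groups overlapped. For Etfa the log2 changes were -0.01 ± 0.14 in GC against Control (adjusted p = 0.954), 0.06 ± 0.12 in GC+GW9662 against GC (adjusted p = 0.712) and 0.04 ± 0.14 in GC+GW9662 against Control (adjusted p = 0.802). The ratio of Etfa to Etfb in TPM was 2.64, 2.03 and 2.61 in GC+GW9662, 13.5, 17.1 and 20.9 in GC and 3.75 and 3.73 in Control. This ratio was not tested.

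Etfdh, the oxidoreductase that passes those electrons to ubiquinone, had 18.03, 9.84 and 15.7 TPM with GC+GW9662, against 18.9, 26.5 and 23.1 TPM with GC and 40.6 and 39.6 TPM in Control. The groups stood in the order Control, GC and GC+GW9662 without overlap. For Etfdh the log2 changes were -0.80 ± 0.25 in GC against Control (adjusted p = 0.0269), -0.64 ± 0.23 in GC+GW9662 against GC (adjusted p = 0.0368) and -1.44 ± 0.25 in GC+GW9662 against Control (adjusted p = 0.00281). None of the 3 calls held under every alternative setting. In the same order they missed the threshold in 9, 13 and 1 of 22 settings, and the smallest falls were -0.04, -0.12 and -0.16. Its window held the 1 match among members of the palindrome bound by NRF1 (GCGC on each side of AT), which 0.971% of all windows hold.

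Pdk4, the kinase that turns off pyruvate dehydrogenase and so favours fat over glucose as fuel, had the largest change of any member in GC against Control and in GC+GW9662 against GC on the log2(TPM + 1) scale. With a pseudocount of 0.1 Acaa1b, near 0 in GC, changed more than Pdk4 in GC+GW9662 against GC (4.48 against 3.31). Pdk4 had 23.5, 23.9 and 28.8 TPM in the GC+GW9662 libraries, 1.64, 2.82 and 3.22 TPM in the libraries labelled GC and 88.7 and 78.4 TPM in Control. Every GC library lay below every GC+GW9662 library, and these lay below Control. For Pdk4 the log2 changes were -4.60 ± 0.22 in GC against Control (adjusted p = 2.14e-06), 2.91 ± 0.20 in GC+GW9662 against GC (adjusted p = 1.15e-05) and -1.68 ± 0.22 in GC+GW9662 against Control (adjusted p = 0.00162). All 3 calls held in all 22 alternative settings, where the first ranged over -5.03 to -3.55. Without GC replicate 1 the first was -4.39 ± 0.14 (adjusted p = 1.71e-07) and the second 2.71 ± 0.13 (adjusted p = 8.38e-07). The values rest on 57 to 139 recovered reads per GC library and 845 to 3275 per library of the other groups. Its promoter window lies at chr6:5496229-5496528 on the minus strand and held none of the 6 motifs searched.
Pdk4: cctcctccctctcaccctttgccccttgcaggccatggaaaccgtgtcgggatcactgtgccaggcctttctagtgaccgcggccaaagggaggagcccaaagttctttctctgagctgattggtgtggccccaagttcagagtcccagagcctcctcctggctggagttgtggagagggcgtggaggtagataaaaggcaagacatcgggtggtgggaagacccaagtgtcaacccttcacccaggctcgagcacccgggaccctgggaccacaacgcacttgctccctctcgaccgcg

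**Figure D3:**
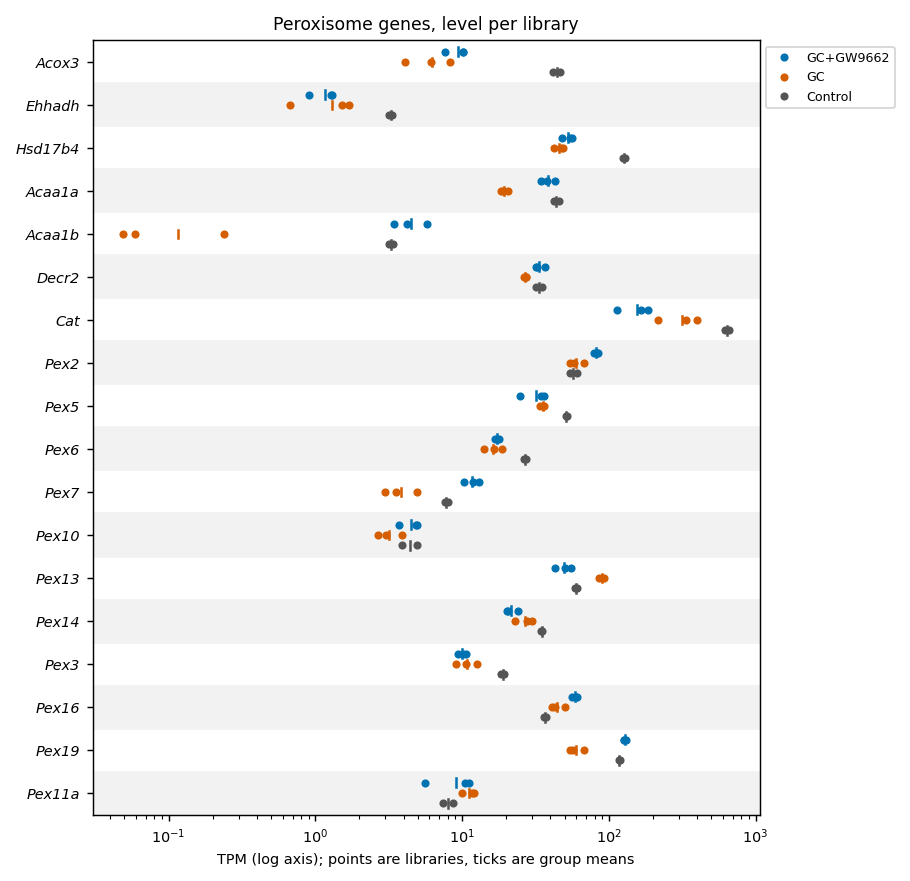
TPM on a log axis of the 18 peroxisome members, 1 row per gene, with GC+GW9662 above GC above Control in each row; points are libraries and ticks are group means. Acaa1b in GC, at 0.0489 to 0.239 TPM, stands apart, and Cat, at 114 to 662 TPM, has the highest mean in each group.

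Of the 6 peroxisomal oxidation enzymes 5 passed as lower in GC against Control, where 39.1% of all genes did. Acox3, an acyl-CoA oxidase that takes the first, peroxide-forming step, had 10.1, 7.71 and 10.2 TPM with GC+GW9662, against 4.08, 8.33 and 6.18 TPM with GC and 46.3 and 41.9 TPM in Control. Control was far above the other 2 groups, which overlapped. For Acox3 the log2 changes were -2.69 ± 0.26 in GC against Control (adjusted p = 7.24e-05), 0.56 ± 0.24 in GC+GW9662 against GC (adjusted p = 0.0699) and -2.13 ± 0.26 in GC+GW9662 against Control (adjusted p = 0.0014). With GC replicate 1 left out they were -2.46 ± 0.18 in GC against Control (adjusted p = 1.15e-05) and 0.33 ± 0.17 in GC+GW9662 against GC (adjusted p = 0.113). The change of Acox3 in GC+GW9662 against GC passed as higher under 5 of 22 alternative settings and ranged over 0.33 to 1.09 in all of them. Ehhadh, the bifunctional enzyme that follows, had 0.910, 1.29 and 1.30 TPM in the GC+GW9662 libraries, 0.672, 1.69 and 1.51 TPM in the libraries labelled GC and 3.36 and 3.19 TPM in Control. Control was highest, and GC+GW9662 and GC overlapped. For Ehhadh the log2 changes were -0.93 ± 0.24 in GC against Control (adjusted p = 0.0125), -0.06 ± 0.22 in GC+GW9662 against GC (adjusted p = 0.838) and -0.98 ± 0.24 in GC+GW9662 against Control (adjusted p = 0.00885). Leaving out GC replicate 1 gave -0.72 ± 0.19 in GC against Control (adjusted p = 0.0111) and -0.27 ± 0.17 in GC+GW9662 against GC (adjusted p = 0.193). The falls of Ehhadh in GC and in GC+GW9662 against Control each missed the threshold in 5 of 21 alternative settings. Over all of these settings the smallest falls were -0.38 and -0.42. Its values rest on 20 to 108 recovered reads per library, and it was at 1 TPM or more in 6 of 8 libraries.

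Hsd17b4, the second bifunctional enzyme, which also serves branched chains, had 56.3, 47.8 and 54.3 TPM with GC+GW9662, against 42.2, 49.01 and 46.9 TPM with GC and 129 and 124 TPM in Control. Control was above both, which overlapped. For Hsd17b4 the log2 changes were -1.44 ± 0.12 in GC against Control (adjusted p = 3.44e-05), 0.19 ± 0.11 in GC+GW9662 against GC (adjusted p = 0.156) and -1.25 ± 0.12 in GC+GW9662 against Control (adjusted p = 0.00085). Its falls in GC against Control and in GC+GW9662 against Control held in all 22 alternative settings.

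The peroxisomal thiolases are the near-identical pair Acaa1a and Acaa1b, whose reads the counting could split. Acaa1b had 5.73, 4.23 and 3.42 TPM in the GC+GW9662 libraries, 0.0593, 0.0489 and 0.239 TPM in the libraries labelled GC and 3.19 and 3.39 TPM in Control. The GC libraries were near 0, with 1, 1 and 5 recovered reads, against 64 to 100 in GC+GW9662 and 57 and 65 in Control. For Acaa1b the log2 changes were -1.95 ± 0.22 in GC against Control (adjusted p = 0.000172), 2.27 ± 0.20 in GC+GW9662 against GC (adjusted p = 4.19e-05) and 0.33 ± 0.22 in GC+GW9662 against Control (adjusted p = 0.228). Acaa1a ranged over 34.6 to 42.8 TPM in GC+GW9662, 18.4 to 20.6 TPM in GC and 42.1 to 45.5 TPM in Control. For Acaa1a the log2 changes were -1.14 ± 0.14 in GC against Control (adjusted p = 0.000227), 0.95 ± 0.12 in GC+GW9662 against GC (adjusted p = 0.000346) and -0.19 ± 0.14 in GC+GW9662 against Control (adjusted p = 0.255). Decr2, the peroxisomal dienoyl-CoA reductase, ranged over 31.97 to 36.6 TPM in GC+GW9662, 26.4 to 27.2 TPM in GC and 31.9 to 34.9 TPM in Control, and its change of 0.31 ± 0.11 in GC+GW9662 against GC (adjusted p = 0.0398) was its 1 pass, which missed the threshold in 12 of 22 alternative settings. Its GC libraries lay below Control without overlap, at -0.30 ± 0.12, which did not pass with all libraries and passed without GC replicate 1 (-0.31 ± 0.11, adjusted p = 0.0428).

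Cat, catalase, which breaks down the hydrogen peroxide that oxidases make, had the highest mean TPM of the members in each group. It had 185, 114 and 166 TPM with GC+GW9662, against 216, 400.0 and 334 TPM with GC and 662 and 619 TPM in Control. The 3 groups did not overlap, and GC+GW9662 was lowest. For Cat the log2 changes were -1.06 ± 0.28 in GC against Control (adjusted p = 0.0128), -1.01 ± 0.25 in GC+GW9662 against GC (adjusted p = 0.00896) and -2.07 ± 0.28 in GC+GW9662 against Control (adjusted p = 0.00168). The call in GC against Control missed the threshold under median-ratio scaling and without either Control library (adjusted p up to 0.0734), and the other 2 held in all 22 alternatives. Cat made up 24.1%, 17.6% and 22.2% of the summed peroxisome members in GC+GW9662, 31.7%, 46.5% and 42.2% in GC and 48.9% and 48.1% in Control. GC replicate 1 was -0.76 (log2) from GC replicates 2 and 3 on this gene. Without that library Cat changed by -0.81 ± 0.21 in GC against Control (adjusted p = 0.0100) and by -1.26 ± 0.19 in GC+GW9662 against GC (adjusted p = 0.000438).

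The window of Cat, at chr2:103485104-103485403 on the minus strand, held AGGTCA beginning 204 bases and AGAACA beginning 197 bases before the start site, with 1 base between.
Cat: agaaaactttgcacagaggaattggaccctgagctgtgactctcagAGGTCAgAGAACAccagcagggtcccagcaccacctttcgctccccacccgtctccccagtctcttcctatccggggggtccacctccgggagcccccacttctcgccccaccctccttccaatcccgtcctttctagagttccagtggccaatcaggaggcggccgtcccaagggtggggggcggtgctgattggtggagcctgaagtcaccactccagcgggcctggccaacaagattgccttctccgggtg
AGAACA is the hexamer that the glucocorticoid receptor binds as an inverted repeat. It was in 4 of 35 member windows (11.4%), those of Cat, Pex16, Hadh and Pex13, against 19% of all windows, and the full repeat, AGAACA followed after 3 bases by TGTTCT, was in 0 of 35 and 0.00913% of all. AGGTCA directly preceded by TCA, which overlaps the plain hexamer, was in 0 of 35 and in 0.423% of all windows.

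The 7 matrix import peroxins gave a summed level of 229, 202 and 225 TPM in GC+GW9662, 234, 235 and 237 TPM in GC and 247 and 239 TPM in Control. The groups did not overlap, yet all 8 libraries lay between 202 and 247 TPM. Pex5, the receptor for most matrix proteins, had 34.7, 24.8 and 36.1 TPM in the GC+GW9662 libraries, 34.1, 35.9 and 36.3 TPM in the libraries labelled GC and 51.96 and 50.99 TPM in Control. Control was highest, and GC+GW9662 and GC overlapped. For Pex5 the log2 changes were -0.53 ± 0.17 in GC against Control (adjusted p = 0.0296), -0.17 ± 0.15 in GC+GW9662 against GC (adjusted p = 0.362) and -0.69 ± 0.17 in GC+GW9662 against Control (adjusted p = 0.00836). The first was 0.00766 under median-ratio scaling, on the other side of 0, and did not pass.

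Pex13, a docking protein of the import pore, was the 1 member that passed as higher in GC than in Control. It had 55.1, 42.97 and 50.2 TPM with GC+GW9662, against 86.2, 92.2 and 90.1 TPM with GC and 59.2 and 60.7 TPM in Control. GC was highest without overlap. For Pex13 the log2 changes were 0.57 ± 0.13 in GC against Control (adjusted p = 0.00592), -0.85 ± 0.11 in GC+GW9662 against GC (adjusted p = 0.000418) and -0.28 ± 0.13 in GC+GW9662 against Control (adjusted p = 0.0868). Its rise in GC against Control missed the threshold without Control replicate 1 (adjusted p = 0.0524). Pex14, its docking partner, ranged over 20.3 to 24.1 TPM in GC+GW9662, 22.9 to 30.1 TPM in GC and 34.6 to 35.3 TPM in Control, and Pex14 fell by 0.67 ± 0.16 in GC+GW9662 against Control (adjusted p = 0.00674). This change was 0.0498 under quantile normalization and 0.46 once the trend with length was removed. Pex14 also passed without GC replicate 1 in GC+GW9662 against GC (-0.40 ± 0.11, adjusted p = 0.0114).

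Pex7, the receptor for proteins with an N-terminal targeting signal, had 10.3, 12.96 and 11.96 TPM in the GC+GW9662 libraries, 4.97, 2.98 and 3.57 TPM in the libraries labelled GC and 7.62 and 7.98 TPM in Control. GC was lowest and GC+GW9662 highest, without overlap. For Pex7 the log2 changes were -0.88 ± 0.22 in GC against Control (adjusted p = 0.00928), 1.41 ± 0.20 in GC+GW9662 against GC (adjusted p = 0.000484) and 0.53 ± 0.22 in GC+GW9662 against Control (adjusted p = 0.0648). The first was 0.19 once the trend with length was removed. The last passed as higher under 8 of 22 alternative settings, among them the fit without GC replicate 1 (0.53 ± 0.15, adjusted p = 0.0134). Pex6, an ATPase that recycles Pex5, ranged over 16.8 to 17.8 TPM in GC+GW9662, 14.03 to 18.6 TPM in GC and 26.7 to 27.3 TPM in Control, and it fell in GC against Control (-0.70 ± 0.15) and in GC+GW9662 against Control (-0.61 ± 0.15). The change against Control in GC+GW9662 was above 0 under 3 alternative settings (0.0482, 0.211 and 0.00551). Pex2, a ubiquitin ligase subunit, ranged over 79.6 to 84.8 TPM in GC+GW9662, 54.3 to 67.8 TPM in GC and 54.04 to 60.5 TPM in Control, and it rose by 0.46 ± 0.11 in GC+GW9662 against GC (adjusted p = 0.00939) and by 0.52 ± 0.13 in GC+GW9662 against Control (adjusted p = 0.00883). Pex10, its partner, ranged over 3.74 to 4.96 TPM in GC+GW9662, 2.69 to 3.88 TPM in GC and 3.91 to 4.94 TPM in Control and passed in no comparison in the main fit. Pex10 passed without GC replicate 1 in GC+GW9662 against GC (0.51 ± 0.18, adjusted p = 0.0314). It also passed there under limma voom on recovered reads, and in GC+GW9662 against Control under quantile normalization.

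Among the peroxins of membrane protein insertion, Pex19, the chaperone of membrane proteins, had 128, 127 and 131 TPM with GC+GW9662, against 67.3, 56.7 and 54.7 TPM with GC and 119 and 118 TPM in Control. GC was lowest. For Pex19 the log2 changes were -0.98 ± 0.12 in GC against Control (adjusted p = 0.000207), 1.11 ± 0.10 in GC+GW9662 against GC (adjusted p = 6.25e-05) and 0.12 ± 0.12 in GC+GW9662 against Control (adjusted p = 0.381). Pex3, its docking factor, ranged over 9.34 to 10.6 TPM in GC+GW9662, 9.03 to 12.6 TPM in GC and 18.5 to 19.3 TPM in Control, and changed by -0.77 ± 0.17 in GC against Control (adjusted p = 0.00613) and by -0.85 ± 0.17 in GC+GW9662 against Control (adjusted p = 0.00435). The change against Control in GC+GW9662 turned positive, at 0.0891 under quantile normalization and 0.0251 once the trend with length was removed. Pex16, which places Pex3, ranged over 55.9 to 60.4 TPM in GC+GW9662, 40.8 to 49.98 TPM in GC and 36.5 to 37.6 TPM in Control, and rose by 0.39 ± 0.11 in GC+GW9662 against GC (adjusted p = 0.0172) and by 0.65 ± 0.13 in GC+GW9662 against Control (adjusted p = 0.00359). Pex11a, which elongates peroxisomes before division, had 11.1, 5.55 and 10.5 TPM in the GC+GW9662 libraries, 9.96, 11.6 and 12.1 TPM in the libraries labelled GC and 7.37 and 8.71 TPM in Control, and did not pass in any comparison in the main fit (adjusted p of 0.219 to 0.762). It passed as higher under 3 of 22 alternative settings in GC against Control and under 2 in GC+GW9662 against Control. Over all settings these changes reached 1.13 and 1.06.

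**Figure D4:**
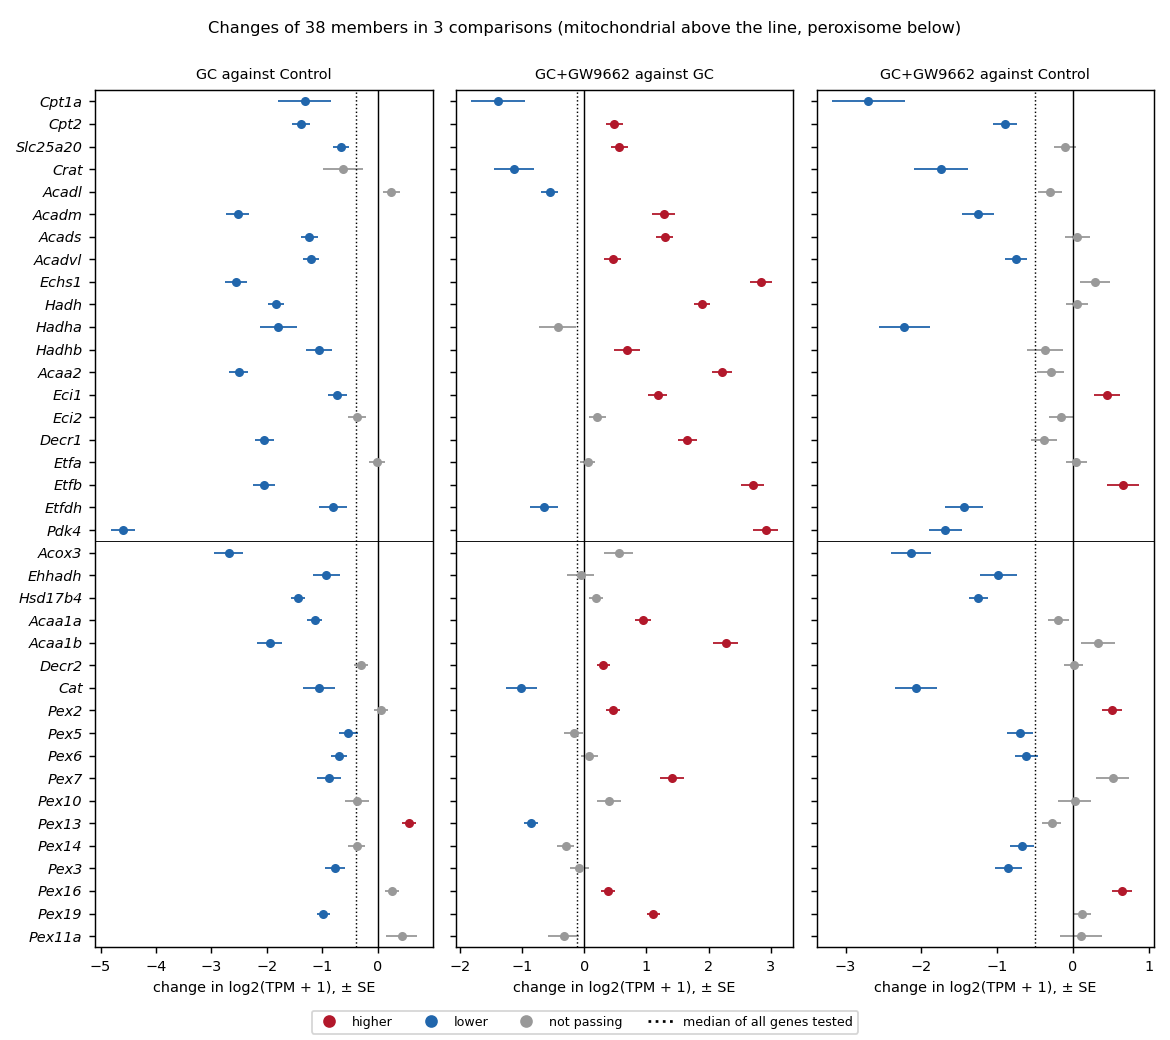
Change in log2(TPM + 1) with SE (horizontal axis) of the 38 members tested, in GC against Control (left), GC+GW9662 against GC (middle) and GC+GW9662 against Control (right); red passed as higher, blue as lower, grey did not pass, and dotted lines mark the median of all genes. Pdk4 reaches -4.60 on the left and 2.91 in the middle, and Cpt1a reaches -2.70 on the right.

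Other scalings moved the median of all genes in GC against Control from -0.38 to 0.04 (median ratio), 0.08 (quantile) and 0.02 (length trend removed). They moved it in GC+GW9662 against Control from -0.49 to 0.01, 0.00 and 0.00. The splits of passing members followed. Under median-ratio scaling GC against Control had 2 higher and 11 lower mitochondrial genes and 4 higher and 4 lower peroxisome genes. GC+GW9662 against Control then had 9 higher and 6 lower mitochondrial genes and 9 higher and 3 lower peroxisome genes, so the direction of both sets in that comparison rests on the scaling. Between GC+GW9662 and GC it left 14 higher and 4 lower mitochondrial genes and 9 higher and 2 lower peroxisome genes.

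Further settings moved the split too. For peroxisome genes in GC against Control, quantile normalization gave 4 higher and 6 lower and removal of the length trend 3 higher and 6 lower. For GC+GW9662 against Control, quantile normalization gave 4 higher and 7 lower mitochondrial genes and 7 higher and 3 lower peroxisome genes. Removal of the length trend there gave 5 higher and 8 lower and 7 higher and 3 lower, and limma voom on recovered reads gave 6 higher and 7 lower and 6 higher and 4 lower. Between GC+GW9662 and GC, rescaling without mitochondrially encoded and the top 20 genes gave 5 higher and 3 lower peroxisome genes, and voom 14 higher and 2 lower mitochondrial genes. Among all genes that passed in GC against Control, 29.3% were higher, and 50.3%, 51.7% and 51.6% with median-ratio scaling, with quantile normalization and without the trend by length. For GC+GW9662 against Control these shares were 22.5%, and 48.0%, 48.7% and 50.9%, with 40.3% by voom.

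Calls that held under each of the 22 alternatives that tested the gene were counted (21 for Acaa1b, which the filter of 5 TPM left out). In GC against Control these were 11 of the 16 mitochondrial falls (Pdk4, Echs1, Acadm, Acaa2, Etfb, Decr1, Hadh, Hadha, Cpt2, Acads and Acadvl) and 4 of the 11 peroxisome falls (Acox3, Acaa1b, Hsd17b4 and Acaa1a). For GC+GW9662 against GC they were 10 of 13 mitochondrial rises, 4 of 7 peroxisome rises (Acaa1a, Acaa1b, Pex19 and Pex7) and the falls of Cat and Pex13, but 0 of the 4 mitochondrial falls. For GC+GW9662 against Control they were the falls of Acadm, Cpt1a, Crat, Hadha, Pdk4, Acox3, Cat and Hsd17b4 and the rise of Pex16. Without Control replicate 1, 5 peroxisome genes passed in GC against Control, and without Control replicate 2, 8 did.

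**Figure D5:**
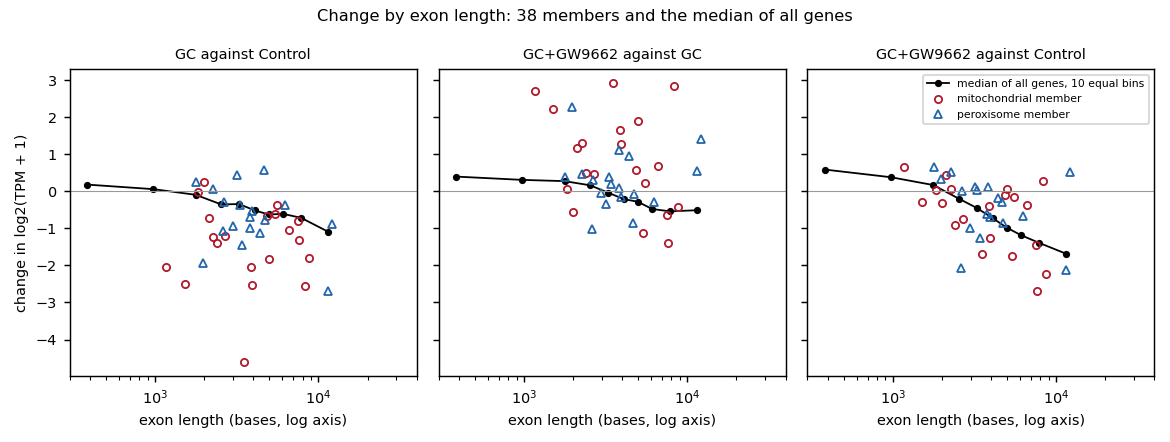
Change in log2(TPM + 1) against exon length in bases (log axis), for GC against Control (left), GC+GW9662 against GC (middle) and GC+GW9662 against Control (right); black points join the medians of all genes in 10 bins of equal size, and open symbols are members. In GC against Control the median is 0.18 in the shortest bin and -1.09 in the longest. The shortest members, Etfb, Acaa2, Pex16 and Etfa, are at -2.05, -2.51, 0.26 and -0.01.

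Changes of all genes fell with exon length in each comparison. The median log2 change in the shortest and the longest bin was 0.18 and -1.09 in GC against Control. It was 0.40 and -0.51 in GC+GW9662 against GC and 0.59 and -1.68 in GC+GW9662 against Control. Among members, Cpt1a (7642 exon bases), Hadha (8730) and Echs1 (8286) are long, and Etfb (1164) is short. These are lengths of all exons joined in GENCODE M21. The steps of the TPM values gave other lengths for 36 of 38 members, for these genes 4300, 4017, 4088 and 893 bases, so the trend by length rests on lengths other than those behind the values. With that trend removed, 12 mitochondrial genes were lower and 1 higher in GC against Control, and 14 were higher and 3 lower in GC+GW9662 against GC. Beside the genes whose direction turned, calls were lost in that setting by 8 members in GC against Control, 4 in GC+GW9662 against GC and 4 in GC+GW9662 against Control, Etfdh among them in each.

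Other mitochondrial oxidation genes, peroxisome genes and regulators were taken from lists chosen for role. The mitochondrial list is wider than fatty acid oxidation and also holds enzymes of amino acid, propionate and ketone body breakdown. Of 33 other mitochondrial oxidation genes tested, 21 passed in GC against Control, all lower, with a median of -1.10, where 39.1% of all genes were lower. Against GC, GC+GW9662 had 22 passing, 17 higher and 5 lower (median 0.61), and against Control it had 23 passing, 5 higher and 18 lower (median -0.65). These shares passing, 63.6%, 66.7% and 69.7%, were near the 55.3%, 61.7% and 62.7% of all genes in the same comparisons. Mccc2 and Pccb, subunits of carboxylases of branched-chain amino acid and propionate breakdown, and Oxct1, which activates ketone bodies, fell most in GC against Control. Pccb had 28.8, 20.04 and 23.3 TPM with GC+GW9662, against 3.37, 3.06 and 2.64 TPM with GC and 38.9 and 36.8 TPM in Control. Its GC libraries were lowest without overlap. Pccb changed by -3.28 ± 0.19 in GC against Control (adjusted p = 4.66e-06) and by 2.63 ± 0.17 in GC+GW9662 against GC (adjusted p = 7.93e-06). Mccc2 changed by -3.36 ± 0.29 in GC against Control (adjusted p = 3.81e-05) and by 2.41 ± 0.26 in GC+GW9662 against GC (adjusted p = 0.000134). Oxct1 changed by -3.14 ± 0.22 in GC against Control (adjusted p = 1.31e-05). Acot2, a mitochondrial thioesterase, fell in GC+GW9662 against GC, at -2.19 ± 0.36 (adjusted p = 0.0012).

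Of 43 other peroxisome genes tested, 35 passed in GC against Control, 5 higher and 30 lower, with a median of -0.95. GC+GW9662 had 27 passing against GC, 21 higher and 6 lower (median 0.27), and 27 passing against Control, 9 higher and 18 lower (median -0.35). These shares passing were 81.4%, 62.8% and 62.8%, against 55.3%, 61.7% and 62.7% of all genes, so the last 2 were near those of all genes. Abcd2, which carries very-long-chain acyl-CoA into the peroxisome, and Ephx2, an epoxide hydrolase, fell most in GC against Control. Abcd2 changed by -3.50 ± 0.18 in GC against Control (adjusted p = 2.75e-06), with GC libraries at 0.0362 to 0.104 TPM. Ephx2 changed by -2.71 ± 0.17 in GC against Control (adjusted p = 7.25e-06) and by 2.36 ± 0.15 in GC+GW9662 against GC (adjusted p = 8.04e-06). Ech1, a dienoyl-CoA isomerase, had 188, 178 and 182 TPM in the GC+GW9662 libraries, 38.9, 24.1 and 29.1 TPM in the libraries labelled GC and 133 and 141 TPM in Control, and rose by 2.56 ± 0.16 in GC+GW9662 against GC (adjusted p = 7.58e-06). Paox rose by 2.26 ± 0.16 in GC+GW9662 against GC (adjusted p = 1.48e-05).

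Of 16 regulators tested, 14 passed in GC against Control, 2 higher and 12 lower, with a median of -1.18. With GC+GW9662 against GC 9 passed, 6 higher and 3 lower (median 0.11), and in GC+GW9662 against Control 12 passed, 2 higher and 10 lower (median -1.09). These were 87.5%, 56.3% and 75.0% of the list, against 55.3%, 61.7% and 62.7% of all genes. Pparg, the receptor that GW9662 binds, had 16.7, 18.5 and 17.5 TPM with GC+GW9662, against 2.26, 3.38 and 3.19 TPM with GC and 6.29 and 8.84 TPM in Control. It was highest in GC+GW9662 and lowest in GC, without overlap. Pparg changed by -1.12 ± 0.21 in GC against Control (adjusted p = 0.00255) and by 2.25 ± 0.19 in GC+GW9662 against GC (adjusted p = 3.40e-05). Ppard, a related receptor, had 4.21, 6.14 and 4.47 TPM in the GC+GW9662 libraries, 27.6, 68.6 and 54.02 TPM in the libraries labelled GC and 20.4 and 21.1 TPM in Control. It was lowest in GC+GW9662, at -3.02 ± 0.31 against GC. Ppara, the receptor best known for driving these genes in liver, stayed at or below 0.490 TPM and was not tested. Pdk1 and Pdk2, kinases related to Pdk4, fell in GC against Control by 2.45 and 2.01 on the log2 scale. Lpin1, which makes diacylglycerol and also acts with PPAR receptors, changed by -2.23 ± 0.37 in GC against Control (adjusted p = 0.00124). Nrf1, a regulator of respiratory genes, changed by -1.48 ± 0.21 in GC+GW9662 against GC (adjusted p = 0.000568).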

How the data were processed

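RNA was measured by Smart-Seq2 in 8 libraries of mouse bone marrow adipocytes. The values deposited by the authors are TPM, which divide reads by gene length and share 1 total across libraries. Per the submitters' processing notes fastp, HISAT2 2.1.0 and featureCounts were used. Which build and annotation they used is not given in the sources used here. Exon lengths and overlaps are from GENCODE M21, whose starts and ends matched 97.6% of rows. Genes on more than 1 row (98 symbols) were used once.

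Genes with at least 1 TPM in 2 libraries were fitted as log2(TPM + 1) with limma 3.58.1 (R 4.3.3), a mean per group over all 8 libraries, a prior that follows expression and a threshold of 0.05 on the two-sided, Benjamini-Hochberg adjusted p. The script was tested on simulated data. Whole reads were recovered from the steps of the values for 99.84% of 26812 genes above 0 (tolerance 0.02), and limma voom on them, an alternative chosen after the data were seen, called 8154 genes in GC against Control, 9295 in GC+GW9662 against GC and 9067 in GC+GW9662 against Control. Since amplified reads repeat molecules, depth speaks to counting error alone. No 2 libraries of a group were copies.

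The members and lists were chosen with earlier results of these data known. All 39 members were accounted for by name, 16 always in full, with the 3 largest passing changes per set and comparison. A further result among the other peroxisome genes is not reported here. Whether shared replicate numbers pair the libraries could not be decided. Correlations of deviations from group means ran from -0.16 to 0.08 for libraries with the same title number and from -0.10 to 0.16 for others. Deviations within groups of 2 or 3 libraries sum to 0, which constrains these values. Promoter sequences are from RefSeq (GRCm38.p6), which had windows for 32 of the 39 (not Acaa2, Cpt1b, Crat, Decr1, Hsd17b4, Pex2 and Pex19). Python 3.11.15, numpy 2.4.6, pandas 2.3.3 and matplotlib 3.10.9 prepared and plotted the values, with the R package data.table, version 1.17.8.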

Additional observations from a re-analysis of the deposited data

How the results depend on the processing

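The 22 alternatives changed the pseudocount (0.1 or 5), left out the filter or set it at 5 TPM, and used 3 other scalings, removal of the trend with exon length, a constant prior, robust empirical Bayes, the compared groups alone, 2 replicate blocks, limma voom on recovered reads, and each library left out. Over them the members kept their call (higher, lower or not passing) in 746 of 833 values in GC against Control, 763 of 833 in GC+GW9662 against GC and 742 of 833 in GC+GW9662 against Control. A change of sign with no pass in either fit counts as kept. Ehhadh in GC+GW9662 against GC, for example, ranged over -0.27 to 0.14. Directions turned, with a pass in the main or the alternative fit, in 3, 0 and 17 values in these comparisons, and the cause was not tested. In GC against Control these were Etfa (0.53) and Pex5 (0.00766) under median-ratio scaling and Pex7 (0.19) without the length trend. In GC+GW9662 against Control, median-ratio scaling gave Slc25a20 0.58, Acadl 0.38, Eci2 0.51, Acaa1a 0.48, Pex6 0.0482 and Pex13 0.40, quantile normalization gave Eci2 0.48, Pex6 0.21, Pex14 0.0498 and Pex3 0.0891, and removal of the length trend gave Slc25a20 0.80, Eci2 0.87, Acaa1a 0.61, Pex6 0.00551, Pex13 0.57, Pex14 0.46 and Pex3 0.0251.

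Leaving out 1 library gave 5513 to 9233 passing genes in GC against Control, 7278 to 10759 in GC+GW9662 against GC and 5598 to 10329 in GC+GW9662 against Control. For mitochondrial members these ranges were 13 to 17, 12 to 18 and 8 to 11. For peroxisome members they were 5 to 13, 7 to 11 and 6 to 11. The lowest counts of peroxisome members against Control came without Control replicate 1, which leaves 1 Control library, assumed to vary like the other groups. Without Control replicate 2, 8 passed in GC against Control.

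With the replicate block by title number, 14 mitochondrial and 12 peroxisome members passed in GC against Control, 15 and 7 in GC+GW9662 against GC, and 9 and 10 in GC+GW9662 against Control. The block by bracket number gave 14 and 11, 16 and 7, and 10 and 10. Depth limits Acaa1b in GC (1, 1 and 5 recovered reads) and Ehhadh most.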
